A study of Mus musculus with 8 samples.

Results

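Of the 24867 merged chromatin accessibility peaks in the ATAC-seq table of NCoR f/f bone marrow-derived macrophages (BMDMs), 9394 (37.8%) were not in the reproducible peak list of the resting vehicle (Veh) state and entered the table through lists of other conditions. ATAC-seq maps open chromatin by the positions that a transposase can cut. Each list holds the peaks that passed an irreproducible discovery rate (IDR) threshold in replicates of 1 condition, and the table names, for every merged peak, the lists that contained it. The 9394 peaks were therefore chosen by measured values, namely the absence of the NCoR f/f Veh list from that field, and lower resting signal in them is partly built into the choice. They fall into 7 groups by the lists that did name them. The list of NCoR f/f cells treated with KLA was the sole source of 4357 peaks, KLA lists of both genotypes named 2202, and the KLA list of NCoR-deficient (NKO) cells was the sole source of 1761. Smaller groups were 388 peaks named by all 3 other lists, 375 by the NKO Veh list alone, 199 by the NCoR f/f KLA and NKO Veh lists, and 112 by both NKO lists. At least 1 KLA list named 9019 of the 9394, as it did 21525 of all 24867 peaks. The lists differ in length, with 18667 peaks for NCoR f/f KLA, 14357 for NKO KLA and 7983 for NKO Veh, and a peak outside the vehicle set had to be in one of these.

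The study asked how the nuclear receptor corepressor NCoR takes part in the response of macrophages to signals. KLA (Kdo2-lipid A) is an agonist of Toll-like receptor 4 (TLR4), RGFP966 inhibits the histone deacetylase HDAC3, and Veh is the vehicle control. The groups measured here are 2 libraries of NCoR1 flox/flox (NCoR f/f) BMDMs given Veh for 6 h, and 6 libraries of wild-type (WT) BMDMs, 2 each for Veh, KLA and RGFP966 + KLA at 6 h, all labelled C57Bl6. By the study's methods BMDMs came from mice 8 to 12 weeks old. Cells were serum-starved before stimulation, and RGFP966 was given from the starvation on, so 6 h is the time with KLA and not with RGFP966. None of these libraries had RGFP966 without KLA. The titles and descriptions of the third WT pair name RGFP966, whereas the treatment entry gives KLA alone. NCoR f/f cells carry floxed alleles without the Cre that deletes the gene, and serve as the control of the NKO cells, which carry LysM-Cre, active in myeloid cells. Library names give the NCoR f/f pair an earlier date than the WT libraries, so genotype and date cannot be told apart, and levels are not compared between the 2 tables. Tags of NKO cells and of KLA-treated NCoR f/f cells were not analysed here, so for these the list names are the sole information.

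TLR4 ligands act on macrophages through the transcription factors NFkB, AP-1 and the interferon regulatory factors (IRFs), which bind enhancers and promoters of inflammatory genes. In macrophages many of these elements are already open, held by the lineage factors PU.1 and C/EBP, while others open after the signal arrives. Products of the response include cytokines and chemokines, and also inhibitors such as those of the NFkB and SOCS families that limit it.

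The sequences below come from 7 peaks outside the vehicle set near genes of this response, and are shown because each holds a match to a consensus of one of these factors and because 6 of the 7 lie under WT peaks that gained tags with KLA (the Il27 peak overlapped no WT peak). Each is the central 200 bp of its peak on the + strand of mm10, as in the RefSeq genome, and the capitals mark the match. They mark NFkB-p65 in the first, NFkB-p65 and then a pair of overlapping IRF matches (GAAANNGAA) in the second, AP-1 (TGACTCA or TGAGTCA) in the Tnip1 and Tgm2 peaks, C/EBP (TTGCNNAA) in the Zc3h12c peak, IRF in the Nfkb1 peak at -28.6 kb and PU.1 (GAGGAAGT) in that at +18.9 kb. Distances are to the nearest transcription start site (TSS), negative upstream of the gene. Nfkb1 encodes the p105 and p50 subunit of NFkB, Il27 a cytokine subunit, Tnip1 an inhibitor that acts with A20, Tgm2 a transglutaminase and Zc3h12c an RNA-binding regulator related to Regnase-1.
Nfkb1 at +51.2 kb, chr3:135640276-135640475: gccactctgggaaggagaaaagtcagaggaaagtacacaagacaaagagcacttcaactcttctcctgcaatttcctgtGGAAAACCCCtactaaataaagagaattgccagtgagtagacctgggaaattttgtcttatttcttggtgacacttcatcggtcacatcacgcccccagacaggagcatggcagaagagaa
Il27 at -12347 bp, chr7:126607158-126607357: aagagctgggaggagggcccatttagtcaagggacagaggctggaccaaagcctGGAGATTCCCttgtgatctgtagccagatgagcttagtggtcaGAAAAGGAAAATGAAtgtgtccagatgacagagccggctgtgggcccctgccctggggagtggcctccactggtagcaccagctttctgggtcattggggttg
Tnip1 at +26.7 kb, chr11:54936111-54936310: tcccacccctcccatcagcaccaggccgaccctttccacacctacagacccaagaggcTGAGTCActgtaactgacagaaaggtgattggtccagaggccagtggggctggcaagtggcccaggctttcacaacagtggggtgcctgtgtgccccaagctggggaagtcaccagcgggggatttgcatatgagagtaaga
Tgm2 at +0.772 kb, chr2:158145521-158145720: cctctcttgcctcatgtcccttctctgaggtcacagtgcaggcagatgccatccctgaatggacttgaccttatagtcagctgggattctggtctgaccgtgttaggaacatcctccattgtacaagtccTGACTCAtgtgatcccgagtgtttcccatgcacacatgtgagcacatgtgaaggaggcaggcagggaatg
Zc3h12c at -121.1 kb, chr9:52289158-52289357: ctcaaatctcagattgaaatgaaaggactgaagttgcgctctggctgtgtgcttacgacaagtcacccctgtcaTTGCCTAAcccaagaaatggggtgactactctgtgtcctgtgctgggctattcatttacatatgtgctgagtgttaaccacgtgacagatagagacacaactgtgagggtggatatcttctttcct
Nfkb1 at -28.6 kb, chr3:135720033-135720232: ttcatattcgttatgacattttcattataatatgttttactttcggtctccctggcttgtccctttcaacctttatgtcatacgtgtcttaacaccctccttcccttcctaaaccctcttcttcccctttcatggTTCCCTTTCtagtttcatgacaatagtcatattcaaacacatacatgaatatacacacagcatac
Nfkb1 at +18.9 kb, chr3:135672500-135672699: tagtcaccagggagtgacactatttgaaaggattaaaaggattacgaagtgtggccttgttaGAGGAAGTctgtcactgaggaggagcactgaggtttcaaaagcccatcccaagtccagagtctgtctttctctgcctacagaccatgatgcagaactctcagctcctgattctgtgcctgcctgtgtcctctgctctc
The Nfkb1 peak at +51.2 kb had 3 and 3 resting NCoR f/f tags, that of Il27 had 7 and 10, Tnip1 15 and 9, Tgm2 13 and 7, Zc3h12c 7 and 7, and the Nfkb1 peaks at -28.6 and +18.9 kb had 9 and 10 and 1 and 3. A match is a description of these letters and was not tested as a binding site.

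In peaks, 372367 and 509741 tags were counted in the NCoR f/f pair and 116733 to 202523 in the WT libraries, which was 1.40% to 2.73% of all tags over the 8 libraries. Intervals of counts and shares given here are 95% intervals and cover counting error only. Whether the 2 libraries of a condition stem from different mice is not given in the sources used here, so p-values measure the spread between these libraries, which may be technical. Of 10 macrophage markers, 6 had a peak within 2 kb of the TSS in the NCoR f/f table, with 153 summed tags in each library (Spi1, Itgam and Cd68 among them), whereas Csf1r, Adgre1, C1qa and Lyz2 had none. Such a peak was present for 0 of 6 B cell and 0 of 5 fibroblast markers, and for 1 each of the T cell (Tcf7), neutrophil (Camp), dendritic (Zbtb46) and erythroid (Klf1) markers.

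Peaks outside the vehicle set had low but rarely absent resting signal. Their median was 7 tags in the first Veh library and 10 in the second, against 16 and 22 for the 15473 vehicle-set peaks. As a density, the median was 71.9 tags per kb per 1000000 tags in peaks (quartiles 52.4 and 91.8), and 135 for the vehicle set. No tag at all was seen at 69 peaks in the first library and at 16 in the second, and 266 (2.83%) had 3 tags or fewer in both. None of the vehicle-set peaks had so few. At the other end, 266 peaks outside the set had at least 16 tags in both libraries, as did 7611 (49.2%) of the vehicle-set peaks. A filter of at least 4 tags in 1 library would keep 9128 of the 9394. Being absent from the list therefore did not mean absence of tags, and 2318 peaks (24.7%) had a density above the 10th percentile of the vehicle set.

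Resting signal differed between the groups. The medians were lowest, at 6 and 9 tags, for NCoR f/f KLA only and for NKO KLA only, and were 8 and 11 for KLA in both genotypes and for NKO Veh only. The 388 peaks of all 3 other lists were the highest of the 7 groups in the second library, at 11 and 19.5 tags. Their density of 99.8 on the same scale came near that of the 2635 peaks that the vehicle list alone named, 110, and 59.8% of them lay above the 10th percentile of the vehicle set. The NCoR f/f KLA and NKO Veh group had medians of 11 and 14 tags, and that of both NKO lists 9 and 15. These values chose the peaks in part and are given with no test.

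**Figure D1:**
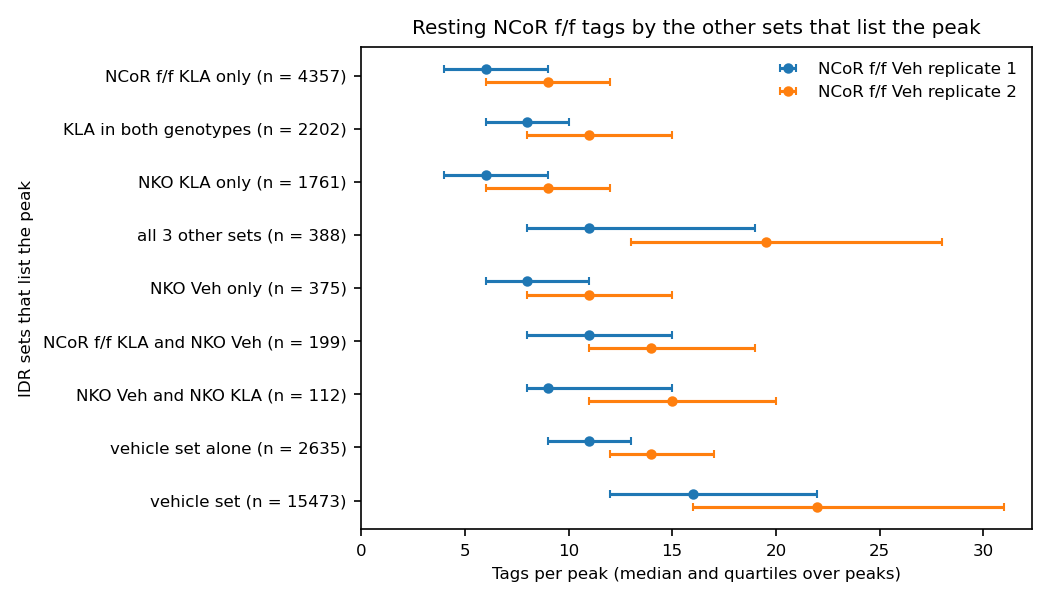
Resting tags per peak in the 2 NCoR f/f Veh libraries (x axis), for the 7 groups of peaks outside the vehicle set, the peaks of the vehicle list alone and the whole vehicle set (y axis). Points are medians over peaks and bars run from the lower to the upper quartile. NCoR f/f KLA only and NKO KLA only sit lowest, at medians of 6 and 9 tags, and the group of all 3 other lists reaches 11 and 19.5.

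The peaks also lay farther from promoters. Within 2 kb of a TSS were 3244 of 9359 with a distance (34.7%, interval 33.7% to 35.6%), against 55.8% (55.0% to 56.6%) of the vehicle set, and the median distance was 8843 bp against 609 bp. The share was 30.0% for KLA in both genotypes, 31.4% for NKO KLA only and 34.6% for NCoR f/f KLA only. In the groups that also carried the NKO Veh name it was higher, at 43.1% to 55.3%. By the deposited annotation 40.8% were intronic, 30.3% intergenic and 21.8% at promoters, where the vehicle set had 26.2%, 21.9% and 45.9%. Peaks named by the vehicle list alone, which also had fewer tags, had 40.9% within 2 kb. Among the 263 peaks outside the set with at least 16 tags in both libraries and a distance, 69.2% lay within 2 kb, beside 66.9% of vehicle-set peaks with as many tags, so at this tag level the 2 shares lay close together. Whether tag level accounts for the distance to promoters in the other peaks was not tested.

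Repeats were annotated at 13.5% of the peaks outside the vehicle set, of which LTR elements made up 6.25% of the peaks, against 8.07% and 3.15% in the vehicle set. A further vehicle-set peak lay within 10 kb of 38.8% of them, a share not far from the 41.9% for vehicle-set peaks themselves.

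Consensus matches in the central 200 bp were counted on both strands for the 9335 peaks outside the vehicle set on the main chromosomes. NFkB-p65 matched in 6.15% (5.68% to 6.65%), against 3.51% (3.23% to 3.81%) of the vehicle set and 4.51% of all peaks. AP-1 matched in 16.9%, against 11.7% and 13.7%, and IRF in 6.89%, against 4.85% and 5.63%. C/EBP matched in 11.7%, against 8.71% and 9.86%, whereas PU.1 was close in all, with 8.24%, 7.93% and 8.05%. Since the peaks were more often distal, the same was counted over peaks more than 2 kb from a TSS. There NFkB-p65 matched in 6.35% against 3.62%, AP-1 came close, with 23.3% against 22.3%, and PU.1 turned to a lower share outside the set, with 10.6% against 14.1%. Outside the set IRF and C/EBP matched in 8.32% and 14.7% of distal peaks and in 4.20% and 6.05% of those within 2 kb. The part of distance in their higher shares above was not tested. Median GC content was 52.5% outside and 59% inside the vehicle set, and 49.5% and 51% among distal peaks. Matches of different factors can overlap, and GC content moves with them. Its part in these shares was not tested.

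The share of a gene's assigned peaks outside the vehicle set varied between gene lists. Over all genes 37.8% of peaks (37.2% to 38.4%) were outside. For chemokines and their receptors it was 22 of 31 peaks (71.0%, 53.4% to 83.9%), for inflammatory cytokines 21 of 32 (65.6%), for induced effector enzymes 18 of 30 (60.0%), for feedback regulators 37 of 63 (58.7%) and for NFkB subunits and inhibitors 34 of 61 (55.7%, 43.3% to 67.5%). Osteoclast genes had 18 of 34 (52.9%), interferon and IRF/STAT genes 28 of 53 (52.8%) and the TLR4 pathway 20 of 39 (51.3%). Near the average were macrophage lineage factors (28 of 68, 41.2%), the corepressor complex (9 of 25, 36.0%), AP-1 and related factors (25 of 71, 35.2%) and IL4-response genes (13 of 37, 35.1%). Target genes of LXR and lipid metabolism were below it, with 5 of 29 (17.2%, 7.60% to 34.5%). Peaks of 1 gene are not independent, the lists were drawn up with earlier results of these data known, and no test was made of these shares.

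**Figure D2:**
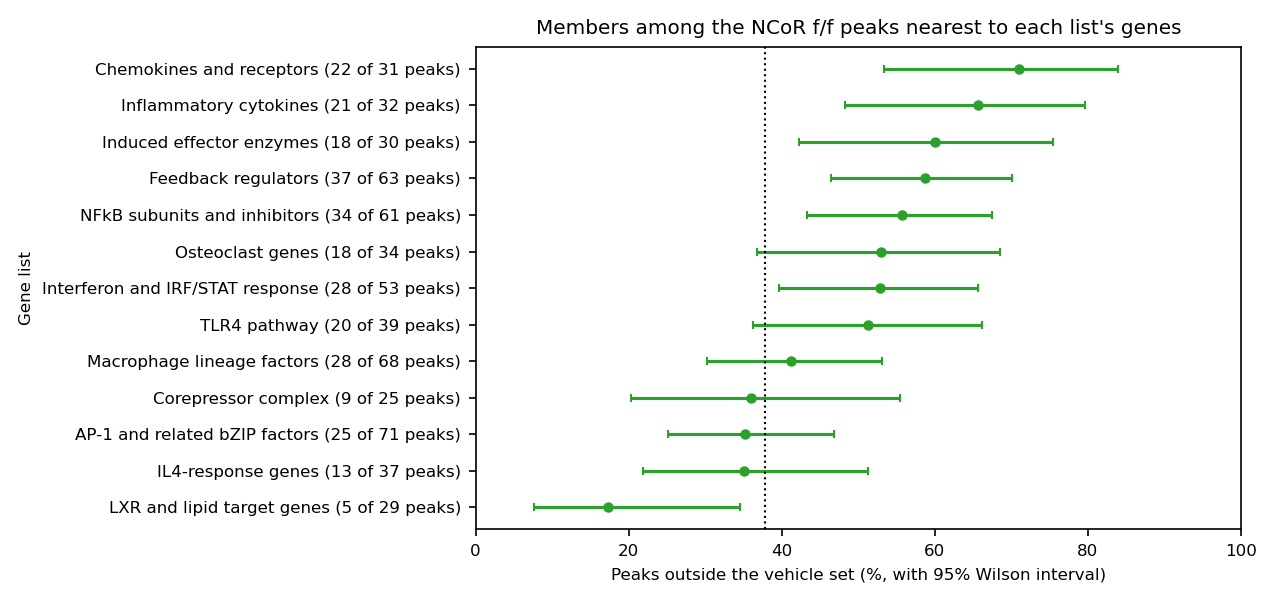
Share of NCoR f/f peaks outside the vehicle set (x axis, %) among the peaks assigned as nearest to the genes of each list (y axis). Points are shares, bars 95% Wilson intervals that cover counting error only, and the dotted line is the 37.8% over all genes. Chemokines lie at 71.0% and LXR and lipid target genes at 17.2%.

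Single loci show how this looked at the genes themselves. Il12a, which encodes the p35 subunit of interleukin 12, had 4 peaks, and all 4 were outside the vehicle set. They held 4 and 3 tags at -57.8 kb, 2 and 1 in intron 2, 14 and 8 at 17906 bp, and 0 and 5 at -24073 bp. Ptgs2, the gene of cyclooxygenase 2, had a single peak (chr1:150100090-150100350, 0.189 kb from the TSS), named by the NCoR f/f KLA list alone, with 2 and 8 resting tags. Socs3, a feedback inhibitor of cytokine signaling, had 7 of its 8 peaks outside, 4 of them named by KLA lists of both genotypes, and at its TSS stood 13 and 10 tags. All 3 peaks of Il1a and all 3 of Il27 were outside, as were 5 of 6 of Il10, each of these 5 named by the NCoR f/f KLA list alone. Of 10 Nfkb1 peaks 6 were outside, and of 8 Nfkbiz peaks 5, 4 of which were close to a TSS. By contrast the 6 peaks of Abca1, the cholesterol transporter induced by LXR, were all in the vehicle set. Scd2, which encodes a stearoyl-CoA desaturase, had 2 of 3 outside, and Ocstamp, an osteoclast fusion gene, 2 of 3. No peak was assigned to Cp or Acp5 in this table.

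The WT table gave an independent measure of the same regions, since its libraries are not those that the NCoR f/f lists name. Of the 9394 peaks, 1719 (18.3%) overlapped a WT peak by at least 1 bp, against 49.1% of the vehicle set. The share was 52.8% for the group of all 3 other lists, 33.6% for KLA in both genotypes and 10.4% for NCoR f/f KLA only. Results in WT cells thus describe a minority of the peaks, and a peak that is not in the WT table is not shown to be closed there. In total 1700 WT peaks overlapped the 9394, 71 of which also overlapped a vehicle-set peak. Of these 1700, 82.4% were not in the WT Veh list, 39.5% were in the WT KLA list and 78.5% in the RGFP966 + KLA list. Over all 9698 WT peaks the same shares were 51.1%, 52.5% and 81.1%. The 1700 were thus more often absent from the Veh list, but less often in the KLA list. The RGFP966 + KLA list alone named 867 of the 1700, and 2908 of all 9698.

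In WT cells the regions outside the NCoR f/f vehicle set took a larger share of tags after KLA. Of the 1700 WT peaks over them, 82.4% were not in the WT Veh list, so part of this rise is built into the choice of peaks. With Veh the 1700 WT peaks held 10.5% and 10.9% of the tags in peaks, with KLA 14.0% and 13.9%, and with RGFP966 + KLA 14.5% and 14.5%. Both KLA libraries lay above both Veh libraries, and both RGFP966 + KLA libraries above both KLA libraries. Of the 1700, 867 were in the RGFP966 + KLA list alone, so the second step is partly built in as well. With 2 libraries against 2, an exact two-sided permutation test cannot give a p below 0.333. WT peaks under KLA in both genotypes went from 3.28% and 3.29% to 5.68% and 5.53% with KLA, and those under NCoR f/f KLA only from 1.87% and 1.81% to 2.76% and 2.69%. Peaks under NKO KLA only went from 0.685% and 0.723% to 0.987% and 0.968%, and reached 1.29% and 1.32% with RGFP966. The group of all 3 other lists was level throughout, with 1.93% and 1.94% in Veh, 1.94% and 1.94% in KLA and 1.93% and 1.97% in RGFP966 + KLA. WT peaks over no NCoR f/f peak rose as well, from 1.75% and 1.85% to 2.38% and 2.33%, and to 3.25% and 3.23% with RGFP966. The RGFP966 + KLA list alone named 129 of the 178 WT peaks under NKO KLA only and 377 of these 480. That choice favors their higher shares with RGFP966. The vehicle-set regions went from 87.8% and 87.3% to 83.7% and 83.7%, as shares of a fixed total must when others take more. Fewer cells with an open region and less cutting per cell cannot be told apart in these bulk libraries.

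**Figure D3:**
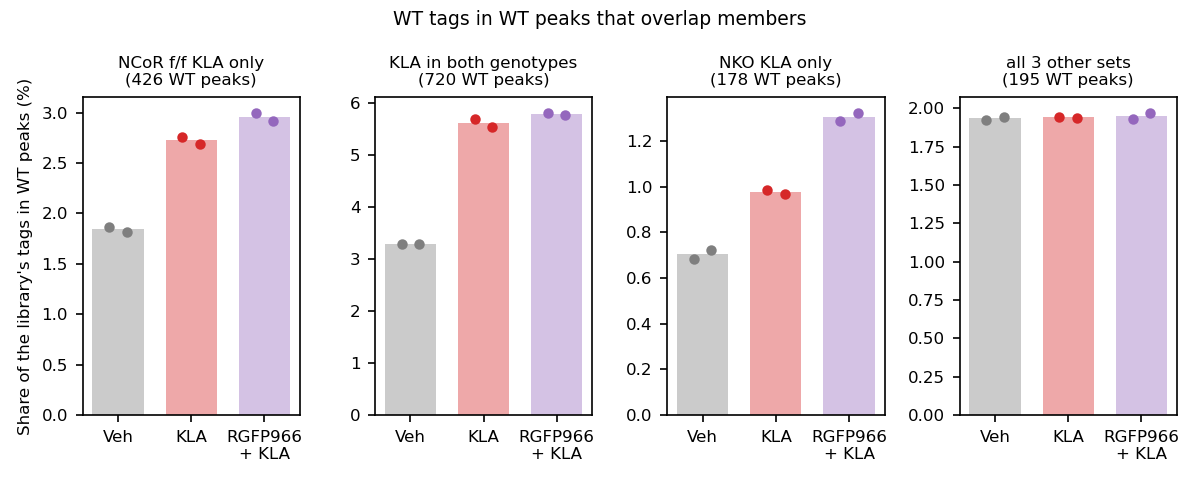
Share of each WT library's tags in peaks (y axis, %) that fell in WT peaks overlapping 4 of the groups outside the NCoR f/f vehicle set, for Veh, KLA and RGFP966 + KLA (x axis). Points are the 2 libraries, bars their mean, and each panel has its own scale from 0. KLA in both genotypes goes from 3.28% and 3.29% to 5.68% and 5.53%, and all 3 other lists stays between 1.93% and 1.97%.

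Peak by peak, gains with KLA in WT cells were more frequent over these regions than over the table as a whole. With edgeR at an adjusted p under 0.05 and over 2-fold, 216 of the 1700 WT peaks were gained in KLA against Veh (12.7%, 11.2% to 14.4%), where 3.3% of all 9698 WT peaks were, and 20 were lost (1.18%), where 1.73% of all were. The median log2 fold change was 0.59 over the 1700, against -0.05 over the 7518 WT peaks that overlapped the vehicle set alone, of which 73 (0.971%) were gained and 141 (1.88%) lost. The 480 WT peaks that overlapped no NCoR f/f peak were also higher with KLA, with a median of 0.58 and 31 gained (6.46%), so the gain was not particular to the regions outside the vehicle set. Of all 320 gained WT peaks, 216 (67.5%, 62.2% to 72.4%) overlapped a region outside the NCoR f/f vehicle set, as did 20 of 168 lost ones (11.9%). DESeq2, the tool of the study, called 0 peaks in either direction, and at an unadjusted p under 0.05 gave 235 higher and 25 lower of the 1700. The gained edgeR calls numbered 140 when scaled to all tags of each library and 75 to 180 with 1 library left out, lowest without the first Veh library. All 216 gained and all 20 lost peaks had no overlap between the Veh and KLA libraries. The call itself favors such separation, and its share over all WT peaks was not counted, so this adds no separate evidence. Counts were low, with medians at the gained peaks of 2 and 2 tags in Veh, 18 and 11 in KLA, and 16 and 16 in RGFP966 + KLA. Both Veh libraries had 3 tags or fewer at 134 of the 216, and none at 8.

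The groups differed in the share that was gained. It was 19.03% (137 of 720, median log2 fold change 0.90) for KLA in both genotypes, 12.2% (52 of 426, 0.64) for NCoR f/f KLA only and 8.43% (15 of 178, 0.68) for NKO KLA only. Regions of all 3 other lists stood near the background, with 7 gained (3.59%) and 3 lost of 195 and a median of 0.02. Under NKO Veh only, 1 was gained and 5 were lost of 23, with a median of -0.69. With both NKO lists 0 were gained and 2 lost of 26, and with NCoR f/f KLA and NKO Veh 0 of 44 were called.

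**Figure D4:**
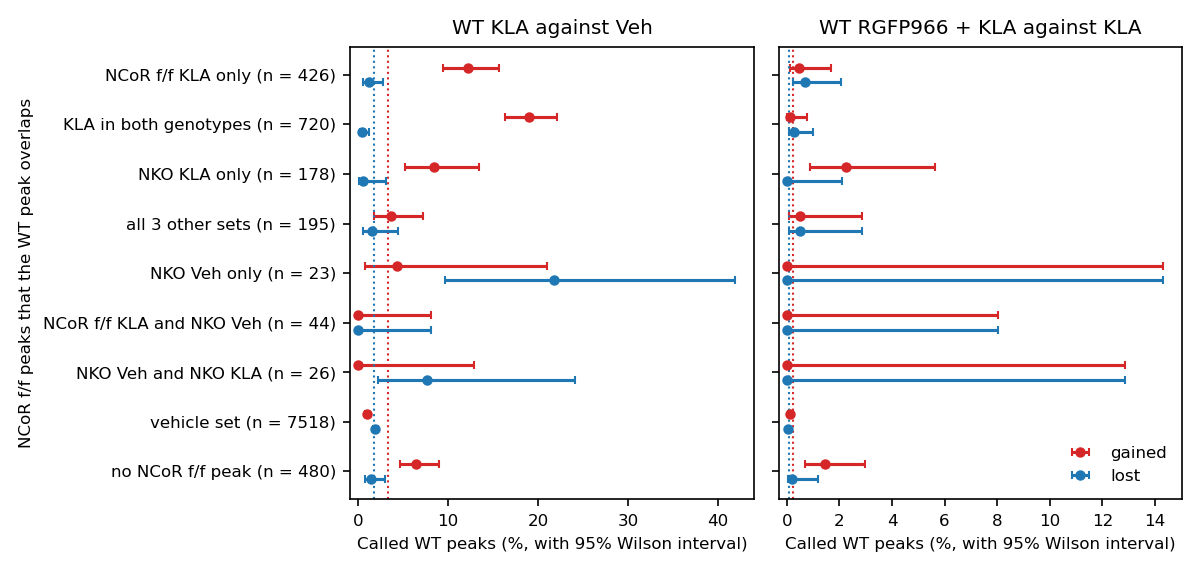
WT peaks called by edgeR (x axis, %) for KLA against Veh on the left and RGFP966 + KLA against KLA on the right, by the NCoR f/f peaks they overlap (y axis). Points are shares with 95% Wilson intervals, red for gained and blue for lost, and dotted lines give the shares over all WT peaks, 3.3% and 1.73% on the left. KLA in both genotypes had 19.03% gained, and the vehicle set 0.971%.

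A WT peak enters its own table through a WT list, and a list chosen in Veh or in KLA favors one direction, so the counts were also split by WT list, a split chosen after seeing the data. Among WT peaks of the Veh list, 0 of 299 over the regions outside the NCoR f/f vehicle set were gained and 20 (6.69%) were lost, against 2 and 134 (3.04%) of 4402 over the vehicle set. Among those of the KLA but not the Veh list, 163 of 534 (30.5%) were gained, against 67 of 1452 (4.61%). Membership of the RGFP966 + KLA list depends on neither the Veh nor the KLA libraries, and within it 162 of 1335 (12.1%, 10.5% to 14.0%) were gained, against 58 of 6133 (0.946%). The KLA list was called from KLA libraries compared here, so gains in it are partly built into the choice and add no support. The RGFP966 + KLA list shares peaks with it, also comes from cells given KLA and so favors gains too. In that list the gained share was larger over the regions outside the vehicle set than over the vehicle set, which is a description. Within the RGFP966 + KLA list, 23 of 401 WT peaks over no NCoR f/f peak (5.74%) were also gained.

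Cytokine genes were among those with gained peaks. The Il12a peak at -57.8 kb (chr3:68632667-68632950, intergenic, KLA in both genotypes) had 3 and 2 tags in WT Veh, 39 and 13 in KLA and 14 and 22 in RGFP966 + KLA. Both KLA libraries were above both Veh libraries, 8.56-fold in tags per 1000000 (counting interval 3.44 to 27.5, edgeR adjusted p = 0.000164). The call held with each of the 6 libraries left out in turn. At the Il12a peak in intron 2, named by NKO KLA only, Veh had 0 and 1 tags, KLA 7 and 8, and RGFP966 + KLA 10 and 12 (12.3-fold, 1.90 to 520, edgeR adjusted p = 0.0177). Its interval is wide because 1 tag stands for the Veh state, and the call held in 3 of the 6 fits without 1 library. The promoter of Il15 (chr8:82402519-82402854), which encodes a cytokine of lymphocytes and natural killer cells, had 2 and 3 tags in Veh, 29 and 16 in KLA and 25 and 38 in RGFP966 + KLA (7.41-fold, 2.95 to 23.9, edgeR adjusted p = 0.000509), and this call held in all 6. Il12b, which encodes the p40 partner subunit and was named after its values were seen, had a peak at -9.83 kb with 2 and 1 tags in Veh, 30 and 12 in KLA and 11 and 14 in RGFP966 + KLA (11.5-fold, 3.68 to 58.1, edgeR adjusted p = 0.00021). Il10 at 6.21 kb, with 10 and 6 tags in Veh and 18 and 12 in KLA, was not called (edgeR adjusted p = 0.461), nor was Il1a at -10.3 kb, with 1 and 3 against 5 and 7 (0.361). In the cytokine list, which does not hold Il12a, 2 of 5 WT peaks were gained and 0 lost, where 12.7% of the 1700 and 3.3% of all WT peaks were gained.

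Over the regions of NFkB subunits and inhibitors 6 of 9 WT peaks were gained and 0 lost, where 12.7% of the 1700 and 3.3% of all WT peaks were gained. Of the 6, 4 belonged to the single gene Nfkb1. In intron 6, at +51.2 kb, no tag was seen in either Veh library, whereas KLA had 18 and 13 and RGFP966 + KLA 16 and 17, at least 8.51-fold higher with KLA when 3 tags stand for the Veh condition (edgeR adjusted p = 9e-05). In intron 1, at +18.9 kb, the tags were 1 and 1 in Veh, 13 and 15 in KLA and 2 and 5 in RGFP966 + KLA (11.5-fold with KLA, 2.91 to 99.8, edgeR adjusted p = 0.00112). These 2 peaks carry the NFkB-p65 and the PU.1 match printed above, and both calls held in all 6 fits with 1 library left out. Upstream, at -28.6 kb and named by NKO KLA only, 3 and 1 tags in Veh stood against 11 and 13 in KLA and 7 and 7 in RGFP966 + KLA (4.94-fold, 1.70 to 19.6). At +84.2 kb the tags were 2 and 4, 16 and 10, and 7 and 12 (3.57-fold, 1.44 to 10.6, edgeR adjusted p = 0.0418), a call that held in 0 of the 6. Nfkbiz, the gene of the nuclear inhibitor IkB-zeta, had 2 and 5 tags at its promoter in Veh, 14 and 15 in KLA and 14 and 19 in RGFP966 + KLA (3.41-fold, edgeR adjusted p = 0.0469), held in 1 of the 6. Tnip1 at +26.7 kb had 6 and 4, 18 and 19, and 15 and 21 (3.05-fold, 1.49 to 6.87, edgeR adjusted p = 0.0328). The number of fits that kept a call is not given for every peak named here. Over the 51 calls at named peaks, 183 of 306 fits with 1 library left out kept the call. Neither of the Tnfaip3 peaks, near the gene of the inhibitor A20, was called, with 7 and 12 tags in Veh and 28 and 13 in KLA at 68.5 kb, and 4 and 7 against 14 and 10 at 46.9 kb.

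Feedback and effector genes followed with fewer WT peaks. The Socs3 TSS had 3 and 2 tags in Veh, 15 and 22 in KLA and 23 and 20 in RGFP966 + KLA (6.09-fold, 2.39 to 19.9, edgeR adjusted p = 0.00389), and the call held in 5 of the 6 fits. Zc3h12c had 2 gained peaks, with 6 and 2, 20 and 13, and 18 and 12 tags at 13.7 kb (edgeR adjusted p = 0.029) and 1 and 1, 11 and 11, and 9 and 8 at -121.1 kb (0.0055). At Ptges, which encodes a prostaglandin E synthase, the peak at -22.0 kb had 0 and 2, 9 and 11, and 11 and 11 (8.23-fold, 2.00 to 72.6). In each of these peaks both KLA libraries lay above both Veh libraries, and so did both RGFP966 + KLA libraries. Tgm2, also an IL4-response gene, had 3 and 1, 14 and 8, and 17 and 16 tags 0.772 kb from its TSS (4.53-fold, edgeR adjusted p = 0.0366), held in 0 of the 6 fits. Maf, a lineage factor, had 10 of its 24 peaks outside the vehicle set, and that at 308.7 kb had no tag in either Veh library, 13 and 12 in KLA and 18 and 21 in RGFP966 + KLA, at least 6.86-fold higher with KLA (edgeR adjusted p = 0.000358). By list, 3 of 6 WT peaks were gained for feedback regulators, 1 of 3 for chemokines and 1 of 7 for AP-1. For IL4-response genes it was 1 of 3, for lineage factors 1 of 6 and for effector enzymes 1 of 2, with 0 lost in any of these lists. The gained share was 12.7% over the 1700 and 3.3% over all WT peaks. None was called in either direction among 7 of the TLR4 pathway, 5 of interferon and IRF/STAT genes, 3 of the corepressor complex and 2 of osteoclast genes by edgeR, with every list too small to compare with another.

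**Figure D5:**
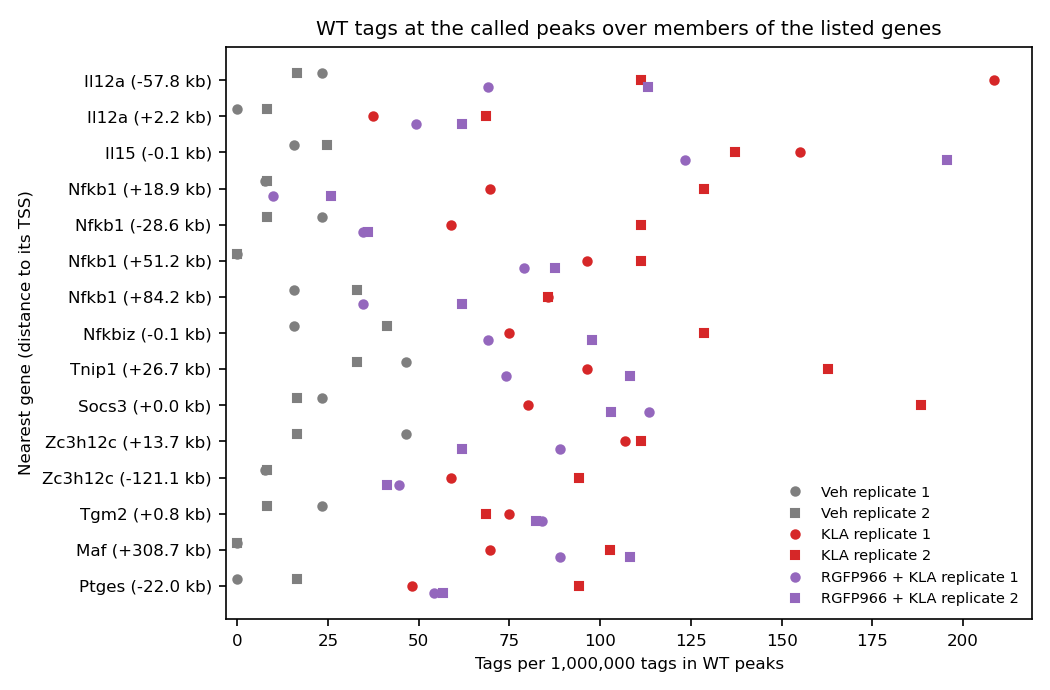
Tags per 1000000 tags in WT peaks (x axis) in each of the 6 WT libraries at the gained peaks of listed genes (y axis, nearest gene and distance to its TSS). Circles are replicate 1 and squares replicate 2, in grey for Veh, red for KLA and purple for RGFP966 + KLA. Both red symbols lie right of both grey ones in every row, and in several rows, Nfkb1 +18.9 kb among them, the purple symbols lie between grey and red.

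Some promoters of well-known KLA response genes were outside the vehicle set and yet not called in WT cells. At the Ptgs2 peak, which is annotated to the overlapping noncoding transcript NR_015466, the tags were 2 and 8 in Veh, 6 and 4 in KLA and 13 and 14 in RGFP966 + KLA, so the Veh and KLA libraries overlapped (edgeR adjusted p = 0.876). The Cxcl2 promoter, of a neutrophil chemokine, had 5 and 4 tags in Veh and 22 and 5 in KLA, where 1 KLA library was high and the other level with Veh (edgeR adjusted p = 0.155). At the promoter of Cd40, a costimulatory receptor, 1 and 4 tags stood against 6 and 6 (edgeR adjusted p = 0.496), and at Tbk1, a kinase of the TLR4 pathway, 1 and 1 against 8 and 6 (edgeR adjusted p = 0.0713). The promoter of Klf4, which lies in the group of NCoR f/f KLA and NKO Veh, was level, with 13 and 15 tags in Veh, 13 and 11 in KLA and 20 and 13 in RGFP966 + KLA.

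Among called peaks with a mean of at least 20 tags, 2 gained ones overlapped a region outside the vehicle set and had separate libraries. Col6a6, a collagen gene, had in an intron 13 and 1 tags in Veh, 44 and 22 in KLA and 34 and 36 in RGFP966 + KLA (3.88-fold, 2.16 to 7.48), and 1 of its Veh libraries was far lower than the other. Rgs9, a regulator of G protein signaling, had 11 and 10, 43 and 24, and 43 and 37 (2.63-fold, 1.59 to 4.52). Among 62 eligible peaks with a mean of at least 10 tags, a limit set after the data were seen, the largest ratios were at Rbbp8, with 1 and 1 tags in Veh and 30 and 18 in KLA (19.8-fold, 5.18 to 168), and Ppfibp2, with 1 and 1 against 24 and 15 (16.1-fold, 4.16 to 137).

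The 20 lost peaks were tagged at rest and all belonged to the WT Veh list. Their medians were 13 and 13 tags in Veh, 5 and 3 in KLA and 8 and 8.5 in RGFP966 + KLA. The promoter of Slc6a6, the taurine transporter, was the best covered in NCoR f/f cells of those named here, with 39 and 40 tags there, and in WT cells it had 17 and 11 in Veh, 2 and 5 in KLA and 3 and 7 in RGFP966 + KLA (0.206-fold, 0.0759 to 0.482, edgeR adjusted p = 0.0055). An intron of Tspan14, of a tetraspanin, had 12 and 11, 3 and 3, and 5 and 8. In both, named after their values were seen, every KLA library lay below every Veh library.

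RGFP966 + KLA was compared with KLA alone. Since RGFP966 was given before KLA and never without it, its effects on the resting state and on the KLA response cannot be told apart. At the 1700 WT peaks edgeR called 8 gained (0.471%) and 6 lost (0.353%) in RGFP966 + KLA against KLA, beside 0.237% and 0.103% over all WT peaks, with a median log2 fold change of 0.12. DESeq2 called 0 in either direction and gave 22 higher and 18 lower at an unadjusted p under 0.05. The split depended on scaling, with 16 gained and 4 lost when scaled to all tags and 6 gained and 39 lost with loess offsets. All 8 gained peaks were in the RGFP966 + KLA list alone and all 6 lost ones in the KLA list, so the lists that brought them into the table favored these directions. Of 299 peaks in the WT Veh list, which depends on neither the KLA nor the RGFP966 + KLA libraries, 0 were called by edgeR. Over all 4743 WT peaks of that list 2 were gained and 2 lost, so 0 of 299 is near the background. The median was 0.38 for NKO KLA only, where 4 of 178 were gained and 80.3% of values were above 0, 0.24 for NCoR f/f KLA only and 0.08 for KLA in both genotypes. Of the 178, 129 were in the RGFP966 + KLA list alone, which favors this direction. WT peaks over no NCoR f/f peak had a median of 0.61, with 7 of 480 gained and 79.4% of values above 0, so the shift was not particular to NKO KLA only. When the split by WT list was made, medians were -0.10 in the Veh list, -0.33 in the KLA but not Veh list and 0.45 in the RGFP966 + KLA list alone, beside -0.05, -0.23 and 0.40 over the vehicle set.

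Individual peaks with the strongest differences were few, and all named here but that of Nfkb1 were named after their values were seen. At Nfkb1 +18.9 kb the tags given above fell by 2.33 on the log2 scale with RGFP966 (edgeR adjusted p = 0.0164). The promoter of Tor1aip1, a nuclear membrane protein, had 6 and 9 tags in Veh, 28 and 20 in KLA and 3 and 10 in RGFP966 + KLA, and fell by 2.24 (edgeR adjusted p = 0.00322). Near Atp1b3, of a sodium pump subunit, the tags were 3 and 3, 20 and 11, and 2 and 6. In these 3 peaks a gain with KLA was called, and both RGFP966 + KLA libraries had fewer tags than both KLA libraries. The reverse pattern stood near Slco5a1, a transporter family gene, where 2 and 4 tags in Veh and 3 and 1 in KLA were followed by 26 and 15 in RGFP966 + KLA (log2 fold change 2.90, edgeR adjusted p = 0.00633). Near Hhat, of an acyltransferase, the tags were 2 and 0, 3 and 2, and 19 and 18. Both of the last named lie in the NKO KLA only group and, like all peaks gained in this comparison over these regions, in the RGFP966 + KLA list alone. None of the 5 calls held in all 6 fits with a library left out.

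Against Veh, RGFP966 + KLA gained 371 of the 1700 (21.8%), where 6.89% of all WT peaks were gained, and lost 38, where 2.99% of all were lost. The gained were 208 of 720 for KLA in both genotypes and 51 of 178 for NKO KLA only, and also 30.0% of the 480 WT peaks over no NCoR f/f peak. With loess offsets the counts were 218 and 53. DESeq2 called 0, with 282 higher and 26 lower at an unadjusted p under 0.05. This comparison shares its libraries with the 2 before it and adds no separate evidence.

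Regions under gained WT peaks held NFkB-p65 matches more often than the rest outside the vehicle set. NFkB-p65 matched in 35 of the 218 NCoR f/f peaks over a WT peak gained with KLA (16.1%, 11.8% to 21.5%), in 8.04% of the 1481 over another WT peak and in 5.50% of the 7636 over none, with 4.51% over all peaks. AP-1 matched in 27.1%, 21.5% and 15.7%, and C/EBP in 17.4%, 13.1% and 11.3%. PU.1 was level, with 7.80%, 8.37% and 8.22%, and so was IRF, with 6.88%, 8.17% and 6.64%. Median GC content was 49%, 51% and 53% in the 3 classes, and its part in these shares was not tested. AP-1 matched in 23.3% of peaks outside the set over 2 kb from a TSS and in 4.66% of those within 2 kb. The 3 classes were not split by this distance, so its part was not tested either.

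The best tagged peaks outside the vehicle set were of another kind. The highest stood at Rn45s, the ribosomal RNA precursor, with 652 and 774 resting tags at chr17:39844424-39844900, 493 and 604 at chr17:39845952-39846347 and 262 and 312 at chr17:39848643-39848855. In WT cells the first had 445 and 545 tags in Veh, 605 and 459 in KLA and 617 and 621 in RGFP966 + KLA, and was not called. Sfi1 followed with 83 and 125 resting tags in an intron, an intergenic peak assigned to Gm5458 with 85 and 72, and Pisd-ps3, on the unplaced contig JH584304, with 77 and 113 at its promoter. Such loci share sequence with other copies, so the assignment of their tags is uncertain. Pisd-ps3 also had the most peaks outside the set, 17 of 119, followed by Vmn1r2 with 13 of 20 and Mroh2a with 11 of 36. Papss1, Wipi1 and Abhd17b, all single genes, had 63 and 110, 59 and 103, and 58 and 80 tags at their promoters, as many as well-tagged vehicle-set peaks, and in WT cells all 3 were in the Veh, KLA and RGFP966 + KLA lists and not called. Among groups, unplaced and other contigs held 4.27% of the peaks of NKO Veh only and 0.0454% of KLA in both genotypes.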

How the data were processed

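ATAC-seq was measured in 8 libraries of BMDMs. Per the submitters' notes and the study's methods, reads were mapped to mm10 with Bowtie2, peaks were called with HOMER, IDR peaks of the 2 most correlated samples of each condition were kept, and the lists of the conditions compared were merged. The deposited counts are raw tags in whole numbers for each peak and library, unscaled, with at most 3 counted at a position. The deposited score column, distances, annotation, nearest genes and list names were taken as the authors give them. The lists behind a merged peak and its nearest gene are text, used as the authors' tables hold them, and every per-sample column was used.

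The peaks outside the vehicle set, the gene lists and the markers were chosen with earlier results of these data known. For WT counts the quasi-likelihood test of edgeR 4.0.16 (R 4.3.3) was fitted over the 9698 WT peaks, all of which reached 4 tags in some library. All 6 WT libraries shared 1 fit, the library size was the total of tags in peaks, and there was no covariate. A called peak changed over 2-fold with a p-value under 0.05 after Benjamini-Hochberg adjustment, and overlaps needed 1 bp. DESeq2 1.42.0 was run as an alternative, and the edgeR step was run on simulated tags. Of 100 simulated peaks changed 2-fold it called 12, of 100 changed 4-fold 74, and it called 4 unchanged ones. A peak that was not called can thus have changed about 2-fold. The simulation used the common dispersion of edgeR itself, so it cannot show whether calls hold under the larger dispersion of DESeq2. Ratios at single peaks are of tags per 1000000 with exact binomial intervals. A condition without tags was set to 3 tags, which gives a lower bound. Shares have Wilson intervals.

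Named peaks were those at Il12a, Ptgs2, Cp, Scd2, Abca1, Ocstamp and Acp5, those of up to 4 genes of each list with the most peaks outside the vehicle set, the called WT peaks with the largest fold and a mean of at least 20 tags, the 5 peaks with the most resting tags within 2 kb of a TSS and the 5 farther away, the 5 genes with the most such peaks, and the peak with the most resting tags of each group. Peaks named beyond this rule are said to have been named after their values were seen. Libraries of NKO cells and of KLA-treated NCoR f/f cells were not analysed here. Motif matches were read from the RefSeq mm10 genome. All 24620 peaks on the main chromosomes lay within its chromosome lengths, and 8867 of 9331 deposited TSS distances within 2 kb (95.0%) fitted a RefSeq TSS of the same symbol within 50 bp.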

Additional observations from a re-analysis of the deposited data

How the results depend on the processing

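All results below are for WT peaks over regions outside the NCoR f/f vehicle set. Gained peaks for KLA against Veh numbered 207 with an overlap of 50% of both peaks, 215 with TMM factors, 189 with loess offsets, 170 with a filter of 16 tags and 177 with the 4 libraries compared alone, against 216, and 140 when scaled to all tags of each library. With loess offsets the lost peaks were 31, and with the filter of 16 tags 9, against 20. DESeq2 called 0 in each comparison and direction. With 1 library left out, the gained ranged from 75 to 180 and the lost from 5 to 16. They were 75 without Veh replicate 1, 99 without Veh replicate 2 and 83 without KLA replicate 1, so single libraries moved the count by over 1.5 times. For RGFP966 + KLA against KLA, 16 were gained when scaled to all tags, 13 with the 4 libraries alone, and 0 to 15 with 1 library left out, against 8, and 39 were lost with loess offsets, 2 with the filter of 16 tags and 0 to 8 with 1 library left out, against 6, so these counts were not stable. The gained were 0 without either KLA replicate or RGFP966 + KLA replicate 1, 2 without RGFP966 + KLA replicate 2 and 15 without either Veh replicate. Scaling to all tags moved the median log2 change of all WT peaks in this comparison from 0.03 to 0.21, and that against Veh from 0.04 to 0.14. For RGFP966 + KLA against Veh, 218 were gained with loess offsets and 130 to 383 with 1 library left out, against 371 (181 and 162 without RGFP966 + KLA replicates 1 and 2, 130 and 176 without Veh replicates 1 and 2), and 9 were lost with all tags, 17 with the filter of 16 tags and 7 to 38 with 1 left out, against 38. The causes were not tested. The edgeR common dispersion was 0.0052 and the median dispersion of DESeq2 0.125.

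The replicate numbers were not shown to pair the samples, since deviations of same-numbered libraries correlated by 0.0037, 0.0113 and 0.0257 over peaks. With the replicate block KLA against Veh gave 230 gained and 22 lost. RGFP966 + KLA gave 394 and 38 when set against Veh, and 12 and 7 when set against KLA. Each of the 51 calls at named peaks was repeated under the alternative settings, 699 repeats in all. Of these, 493 kept the call, 206 lost it, and 0 turned its direction. With 1 library left out 183 of 306 were kept, and with DESeq2 0. As a percentage of the vehicle set's median, the resting density was 53.4% with both libraries, 51.6% without NCoR f/f replicate 1, 50.2% without replicate 2 and 44.7% as tags per peak. Within 1 kb of a TSS lay 30.2%, against 52.6% of the vehicle set, and 69.2% within 2 kb among peaks with 16 tags in both libraries. With an overlap of 50% of both, 16.3% met a WT peak. NFkB-p65 matched in 3.45% with a window of 100 bp and in 8.02% over the whole peak.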
